A study of Mus musculus with 19 samples.

Results

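Ionotropic glutamate receptors are ligand-gated cation channels that carry most of the fast excitatory transmission of the brain. AMPA receptors are tetramers of the subunits encoded by *Gria1* to *Gria4*, NMDA receptors join the obligatory subunit encoded by *Grin1* with GluN2 or GluN3 subunits, and delta receptors act mainly as synaptic adhesion and signalling proteins. The make-up of the tetramer sets its kinetics and its permeability to calcium, and that make-up is known to differ between brain regions. The 10 subunit genes described here were *Gria1*, *Gria2*, *Gria3*, *Gria4*, *Grin1*, *Grin2a*, *Grin2b*, *Grin2d*, *Grin3a* and *Grid1*. They were chosen by gene name, and each was found by the name that the GENCODE M21 annotation gives to its Ensembl identifier. All 10 were among the 41128 genes of the count table and among the 16841 genes with enough counts to be tested.

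RNA was sequenced from 3 brain regions of SCA17 knock-in and wild-type (WT) mice: the prefrontal cortex, the striatum and the cerebellum. All animals were on the C57BL/6 strain and 3 months of age. The knock-in animals carried, in the germline and therefore in every cell type, a *Tbp* allele with an expanded polyglutamine tract, the lesion that causes spinocerebellar ataxia type 17. They were bred by crossing mice with a floxed mutant allele to mice that express Cre from the EIIa promoter, and the WT mice were matched for age. There were 7 libraries of cerebellum, 4 of them knock-in, and each other region had 3 of either genotype. The methods of the study speak of 3 to 4 mice per genotype. The labels number the libraries within each group without naming the mice, and in the data the same number went together in striatum and prefrontal cortex. By their *Xist* and Y-linked counts, each of the 6 groups held both sexes. Each library was made from a whole block of tissue, so that fewer cells of a type and less RNA per cell cannot be told apart.

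The libraries held 10639110 to 17431284 counts, with a median of 15082703. The tissue labels were checked against marker lists. The summed level of 6 cerebellar granule cell markers was 3065 to 3808 CPM (read counts scaled to the effective library size) in the cerebellum and at most 100.8 CPM in the other regions. The summed level of 8 medium spiny neuron markers was 5099 to 10832 CPM in the striatum and at most 1059 CPM elsewhere, and that of 7 cortical excitatory neuron markers was 1262 to 2022 CPM in the prefrontal cortex, 45.6 to 261 CPM in the striatum and 452 to 599 CPM in the cerebellum, where the defining marker *Fezf2* was under 0.5 CPM. WT prefrontal cortex library 3 stood apart: 5 genes typical of the olfactory bulb, a list chosen after the data were seen, summed to 439 CPM there and to at most 23.6 CPM in the other WT prefrontal libraries. Choroid plexus markers reached 1539 to 8877 CPM in the striatal libraries, 1937 CPM in WT cerebellum library 1 and 4868 CPM in knock-in cerebellum library 3. *Tbp* itself had a mean of 58.5 CPM in WT and 52.9 CPM in knock-in cerebellum, and gene counts cannot read the length of its repeat.

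**Figure D1:**
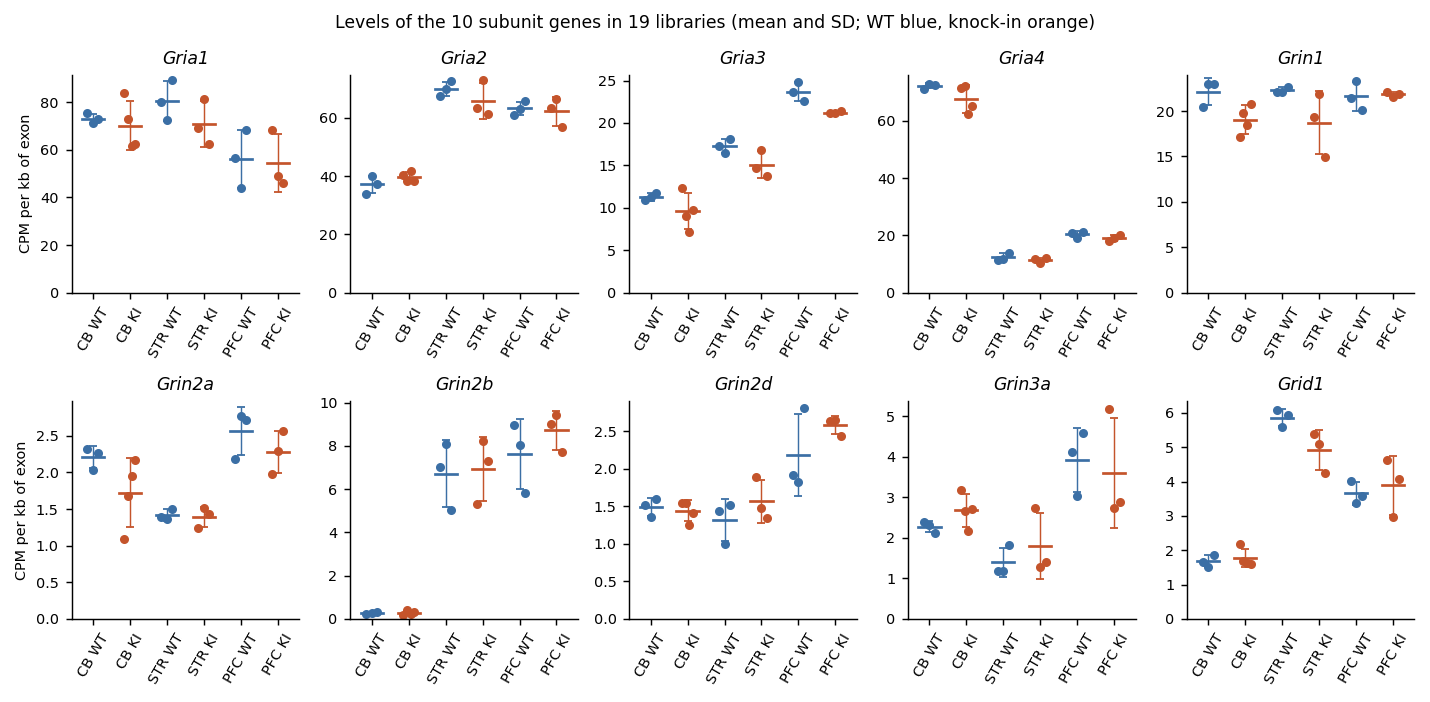
Level of each subunit gene in every library, in CPM per kb of merged exon length, on axes that start at 0. Points are libraries, long bars are group means and thin bars are the SD; WT is blue and knock-in is orange. *Gria4* sits at 62.2 or above in the cerebellar libraries and at 21.2 or below in all others, *Grin2b* is at 0.424 or below in the cerebellum, and *Grin1* lies between 15.0 and 23.3 in all 19.

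The 4 AMPA subunit genes were first compared in WT tissue. Levels are given as CPM per kb of merged exon length, which allows genes of different length to be compared. *Gria1* (chr11:57011387-57330244, plus strand, GRCm38), a subunit with a long cytoplasmic tail that is known for activity-dependent delivery to synapses, was at 75.2, 71.2 and 72.7 CPM per kb in the 3 WT cerebellum libraries. *Gria4* (chr9:4417896-4796234, minus strand), the subunit typical of rapidly gating receptors and abundant in cerebellar granule cells and Bergmann glia, was at 71.2, 72.7 and 72.6. The libraries of these 2 genes overlapped, and both stood above every other member in the cerebellum. *Gria2* (chr3:80681450-80802835, minus strand), whose edited subunit makes the receptor nearly impermeable to calcium, came next there at 34.0, 40.2 and 37.3 CPM per kb. *Gria3* (chrX:41400854-41678601, plus strand), a subunit that usually pairs with the *Gria2* product, had a mean of 11.3 ± 0.431 (SD, n = 3). In the striatum the order became *Gria1* at 80.6 ± 8.33 CPM per kb (SD, n = 3), then *Gria2* at 70.1 ± 2.45, *Gria3* at 17.3 ± 0.835 and *Gria4* at 12.3 ± 1.35. The libraries of the first 2 did not overlap by a narrow margin, since the lowest *Gria1* value and the highest *Gria2* value both round to 72.6. In the prefrontal cortex *Gria2* was at 63.3 ± 2.32 and *Gria1* at 56.3 ± 12.2, and their libraries overlapped. This order holds for merged exons and changes with the length: by the longest transcript *Gria4* led in the cerebellum, at 83.6 CPM per kb against 79.6 for *Gria1* and 55.7 for *Gria2*. By that length *Gria2* led *Gria1* in the striatum, at 105 against 87.8, and in the prefrontal cortex, at 94.9 against 61.3. The libraries of the first 2 genes did not overlap in any of the 3 regions on that scale.

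The position that makes the subunits differ in calcium permeability is the glutamine codon of the pore loop, called the Q/R site. It is shown here because the *Gria2* share described further on matters through this codon, and because it lets the likeness of the 4 genes be read directly. The 42 coding bases around it come from the GRCm38 genome and the longest GENCODE coding sequence of each gene, and the capitals mark the codon.
Gria1: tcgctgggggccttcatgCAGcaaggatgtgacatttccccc
Gria2: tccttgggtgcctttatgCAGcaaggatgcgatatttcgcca
Gria3: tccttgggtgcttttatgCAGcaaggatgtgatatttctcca
Gria4: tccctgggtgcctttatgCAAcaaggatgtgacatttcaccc
The codon lies on chr11:57243094-57243096 in exon 11 of *Gria1*, on chr3:80706911-80706913 in exon 11 of *Gria2*, on chrX:41610265-41610267 in exon 11 of *Gria3* and on chr9:4464137-4464139 in exon 12 of *Gria4*. In *Gria2* RNA this codon is known to be edited by the enzyme encoded by *Adarb1*, which gene counts do not read. Among the 45 pairs of members, the longest run of identical bases between the longest coding sequences was 41 bases, between *Gria2* and *Gria4*, and 0 pairs shared a window of 50 bases.

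*Gria4* and *Gria2* divided the regions in opposite directions. *Gria4* stood at 11.4, 11.7 and 13.9 CPM per kb in the 3 WT striatum libraries and at 20.99, 18.9 and 21.2 in the prefrontal cortex, all below the lowest cerebellar library. It was 5.85-fold higher in the cerebellum than in the striatum (log2 2.55, SE 0.09, adjusted p = 9.04e-13) and 3.54-fold higher than in the prefrontal cortex (log2 1.83, SE 0.09, adjusted p = 3.76e-11) in the quasi-likelihood test of edgeR, the test behind every adjusted p here (Benjamini-Hochberg, over all tested genes). It was also lower in the striatum than in the prefrontal cortex (log2 -0.72, SE 0.09). *Gria2* was lower in the cerebellum than in the striatum (log2 -0.91, SE 0.09, adjusted p = 9.54e-08) and the prefrontal cortex (log2 -0.77, SE 0.08, adjusted p = 9.6e-07), and it did not pass the test between the last 2 regions (log2 0.15, SE 0.08, adjusted p = 0.209). *Gria3* was lower in the cerebellum than in the striatum (log2 -0.62, SE 0.13) and lower in the striatum than in the prefrontal cortex (log2 -0.46, SE 0.13, adjusted p = 0.0129). The second of these steps missed the threshold without WT striatum library 2 (log2 -0.41, adjusted p = 0.0637). *Gria1* differed least: the striatum was 1.43-fold above the prefrontal cortex (log2 0.52, SE 0.17, adjusted p = 0.0271), while the cerebellum passed against neither region.

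The *Gria1* call depended on single libraries. It missed the threshold without WT prefrontal cortex libraries 1 (log2 0.52, adjusted p = 0.0641) and 2 (log2 0.37, adjusted p = 0.131), and without WT striatum libraries 1 (log2 0.54, adjusted p = 0.0533) and 3 (log2 0.45, adjusted p = 0.0822). Without WT prefrontal cortex library 3, the one with olfactory bulb genes, *Gria1* passed between cerebellum and prefrontal cortex (log2 0.54, adjusted p = 0.018, against log2 0.38 and adjusted p = 0.0701 with it). *Gria1* also passed there when striatum and prefrontal cortex libraries of one number were paired by a block in limma-voom (log2 0.40, adjusted p = 0.0473). That library had the highest *Gria1* level of its group, at 68.4 CPM per kb against 56.3 and 44.0.

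As a share of the summed AMPA transcripts, in CPM per kb, *Gria2* made up 17.8%, 20.6% and 19.2% in the 3 WT cerebellum libraries. The values were 38.4%, 41.0% and 37.5% in the striatum and 37.7%, 41.8% and 36.9% in the prefrontal cortex. The cerebellar share was thus below every library of both other regions, by 19.8 percentage points against the striatum and 19.6 against the prefrontal cortex (two-sided exact permutation p = 0.1 each, the smallest that 3 against 3 libraries allow, and 0.3 after adjustment over 12 comparisons). *Gria4* held the opposite order, with 37.3 ± 0.0664% (SD, n = 3) in the cerebellum against 6.84 ± 0.352% in striatum and 12.5 ± 0.520% in prefrontal cortex. *Gria1* held 37.7%, 44.6% and 34.1% on average in the same order. The sum over the 4 genes was 194 ± 2.06 CPM per kb in the cerebellum against 180 ± 12.0 in striatum and 164 ± 13.6 in prefrontal cortex. On this scale the regions were far closer in the sum than in *Gria2*, *Gria3* or *Gria4*. These shares and sums hold for merged exons and change with the length. The longest transcript has 10371 bases for *Gria2* and 5206 for *Gria3*, against 15548 and 9859 in merged exons. The other 2 genes change less, so *Gria2* and *Gria3* weigh more by that length. The order of the regions in the sum need not hold there and was not tested.

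**Figure D2:**
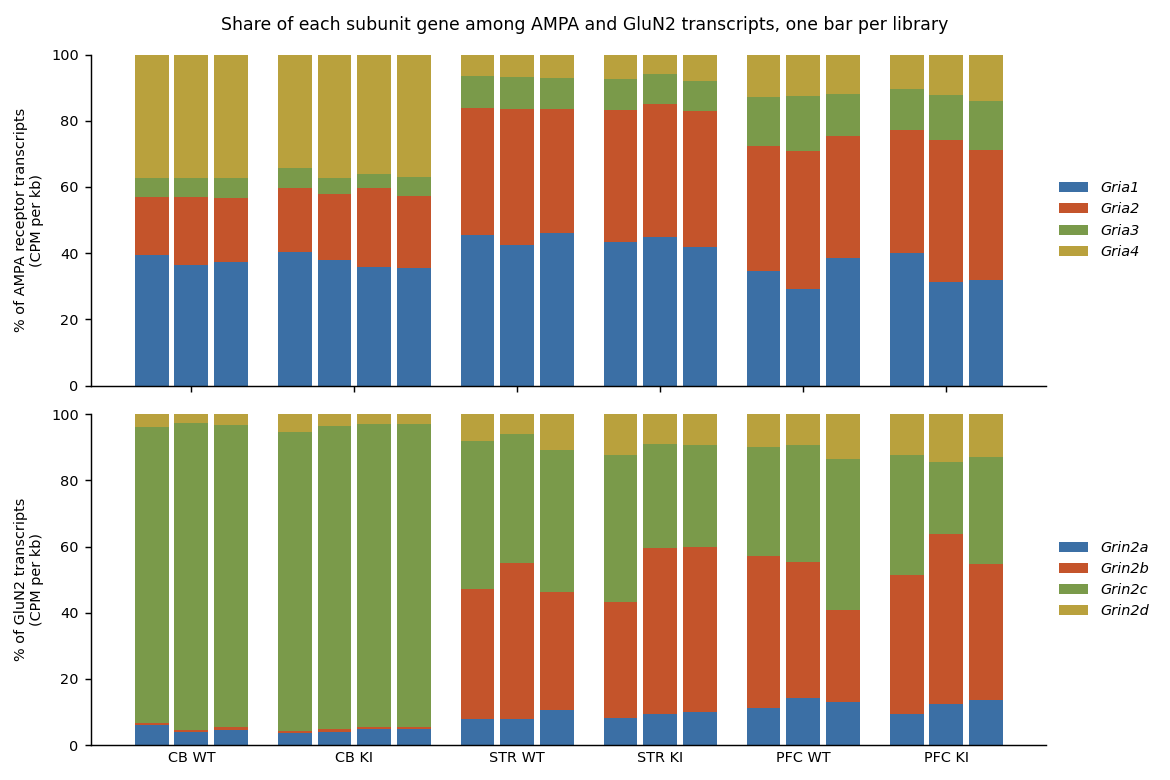
Make-up of the AMPA transcripts (top) and of the GluN2 transcripts (bottom) in each library, as percent of the summed CPM per kb, with one bar per library and the bars grouped by region and genotype. The *Gria4* segment is 34.3% to 37.4% of the cerebellar bars and 5.79% to 14.0% of the others, and *Grin2c* fills 89.5% to 92.9% of the cerebellar GluN2 bars.

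Among the NMDA subunit genes, *Grin1* (chr2:25291181-25319187, minus strand), which encodes the glycine-binding GluN1 subunit present in every NMDA receptor, was level across the regions. It was at 20.5, 23.0 and 22.9 CPM per kb in WT cerebellum, at 22.1, 22.1 and 22.7 in striatum and at 21.5, 23.3 and 20.1 in prefrontal cortex. All 3 groups overlapped. The log2 differences were -0.01 between cerebellum and striatum (95% interval -0.24 to 0.22), 0.03 between cerebellum and prefrontal cortex (-0.19 to 0.26) and 0.04 between striatum and prefrontal cortex (-0.18 to 0.27). The scale of *Grin1* depends on the length used: its merged exons cover 9700 bases and its longest transcript 4276, and by the latter its cerebellar level was 50.2 CPM per kb. It shares 1307 exon bases with the antisense gene *Grin1os*, and the use of strand in counting is not given in the sources used here.

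The GluN2 genes encode the subunits that set the deactivation time and the magnesium block of NMDA receptors. *Grin2b* (chr6:135713233-136173511, minus strand), the subunit of slow receptors that dominates in the young forebrain, was at 0.235, 0.258 and 0.335 CPM per kb in WT cerebellum, which corresponds to 91 to 103 counts. In the striatum it was at 7.03, 8.07 and 5.02, and in the prefrontal cortex at 8.98, 8.02 and 5.82. It was therefore 24.4-fold lower in the cerebellum than in the striatum (log2 -4.61, SE 0.28, adjusted p = 5.43e-10) and 27.7-fold lower than in the prefrontal cortex (log2 -4.79, SE 0.28, adjusted p = 4.57e-10). The striatum and the prefrontal cortex overlapped and did not pass the test (log2 -0.18, SE 0.23). The lowest striatal value came from library 3, which had 261 CPM of cortical excitatory markers against 45.6 and 66.6 CPM in the other WT striatum libraries, and the lowest prefrontal value from the library with olfactory bulb genes; the part of these markers in the values was not tested.

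*Grin2a* (chr16:9567898-9995560, minus strand), the subunit that joins or replaces the *Grin2b* product as the forebrain matures, was at 2.33, 2.03 and 2.27 CPM per kb in WT cerebellum. It was at 1.39, 1.36 and 1.51 in striatum and at 2.18, 2.78 and 2.72 in prefrontal cortex. The cerebellum was above the striatum (log2 0.64, SE 0.18, adjusted p = 0.00717) and the striatum was below the prefrontal cortex (log2 -0.85, SE 0.18, adjusted p = 0.00201), whereas cerebellum and prefrontal cortex overlapped. The log2 ratio of *Grin2a* to *Grin2b* was 3.30, 2.98 and 2.76 in the cerebellum. It was -2.34, -2.57 and -1.74 in the striatum and -2.04, -1.53 and -1.10 in the prefrontal cortex. The cerebellum was the region with more *Grin2a* than *Grin2b*, with a difference of 5.23 log2 units to the striatum and of 4.57 to the prefrontal cortex, each with a two-sided exact permutation p of 0.1, the smallest possible, and 0.3 after adjustment.

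*Grin2c*, a GluN2 gene outside the 10 that is known to mark mature granule cells, was at 42.1 ± 6.70 CPM per kb (SD, n = 3) in WT cerebellum and at 6.91 ± 0.986 and 7.66 ± 1.65 in striatum and prefrontal cortex. *Grin2c* thereby supplied 91.2 ± 1.70% of the GluN2 transcripts in WT cerebellum, 42.2 ± 2.88% in WT striatum and 38.1 ± 6.67% in WT prefrontal cortex. In the last 2 regions the *Grin2b* share was alike, at 40.7 ± 5.85% and 38.2 ± 9.33%. These shares depend on the division by length, since *Grin2b* has 24842 bases of merged exons. In CPM without that division, *Grin2b* was at 167 and *Grin2c* at 34.8 in WT striatum. In WT prefrontal cortex they were at 189 and 38.6. Whether reads covered the whole length of *Grin2b* was not tested. *Grin2d* (chr7:45831883-45878378, minus strand), a subunit of very slow receptors found in interneurons and the diencephalon, was low everywhere, at 1.49 ± 0.124 CPM per kb in cerebellum, 1.32 ± 0.276 in striatum and 2.19 ± 0.545 in prefrontal cortex. The prefrontal cortex was above the striatum (log2 -0.73, SE 0.19, adjusted p = 0.00692) and the cerebellum (log2 -0.55, SE 0.19, adjusted p = 0.0194). Both *Grin2d* calls rested on single libraries: the cerebellar one was lost without WT prefrontal cortex library 3 (log2 -0.33, adjusted p = 0.144) or WT cerebellum library 2 (log2 -0.49, adjusted p = 0.074), and the striatal one without WT striatum library 2 (log2 -0.55, adjusted p = 0.0521).

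*Grin3a* (chr4:49661611-49845744, minus strand), whose product lowers the calcium permeability of NMDA receptors and can form glycine-gated receptors with GluN1, was highest in the prefrontal cortex. Its libraries were at 4.12, 3.04 and 4.58 CPM per kb there, at 2.39, 2.32 and 2.12 in the cerebellum and at 1.18, 1.18 and 1.82 in the striatum. The 3 groups did not overlap. The step from striatum to prefrontal cortex was firm (log2 -1.49, SE 0.29, adjusted p = 0.000842) and held with any one library left out. The cerebellum was above the striatum by log2 0.71 (SE 0.29, adjusted p = 0.0449) and below the prefrontal cortex by log2 -0.78 (SE 0.28, adjusted p = 0.0285), and these 2 *Grin3a* calls were fragile. The first was lost without any one of WT cerebellum libraries 1, 2 and 3 and WT striatum libraries 1 and 2 (adjusted p 0.0642 to 0.152). The second was lost without WT cerebellum library 1, 2 or 3 or WT prefrontal cortex library 1 or 3 (adjusted p 0.0534 to 0.0966), with log2 -0.65 when the library with olfactory bulb genes was left out.

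*Grid1* (chr14:34820108-35583379, plus strand) encodes the delta subunit GluD1, which binds cerebellin at forebrain synapses. It was at 6.08, 5.58 and 5.94 CPM per kb in WT striatum, at 4.03, 3.37 and 3.59 in prefrontal cortex and at 1.67, 1.51 and 1.86 in cerebellum. No 2 regions overlapped. The striatum was 3.5-fold above the cerebellum (log2 -1.81, SE 0.16, adjusted p = 6.15e-08) and 1.6-fold above the prefrontal cortex (log2 0.68, SE 0.16, adjusted p = 0.00309), and the prefrontal cortex was 2.19-fold above the cerebellum (log2 -1.13, SE 0.16, adjusted p = 1.7e-05).

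Counted together, 7 of the 10 members differed between WT cerebellum and striatum, where 56.5% of all tested genes did. Of these, 3 were higher in the cerebellum (*Gria4*, *Grin2a* and *Grin3a*; 27.8% of all genes) and 4 were lower (*Gria2*, *Gria3*, *Grin2b* and *Grid1*; 28.7%). Between cerebellum and prefrontal cortex 7 members passed against 52.0% of all genes, with *Gria4* higher (25.1% of all genes) and *Gria2*, *Gria3*, *Grin2b*, *Grin2d*, *Grin3a* and *Grid1* lower (26.9%). Between striatum and prefrontal cortex 7 passed against 30.5% of all genes, with *Gria1* and *Grid1* higher (14.0%) and *Gria3*, *Gria4*, *Grin2a*, *Grin2d* and *Grin3a* lower (16.4%). The libraries did not overlap for 7, 8 and 8 members in the same order, where 63.9%, 59.1% and 41.8% of all genes did not. The 3 comparisons share WT libraries and are not independent. *Grin1* passed in none of them. The median log2 difference of the members was -0.08, -0.66 and -0.32, beside a median of about 0 over all genes in each. The marker lists given above moved between the regions with these values, and how far cell types set the regional levels was not tested.

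**Figure D3:**
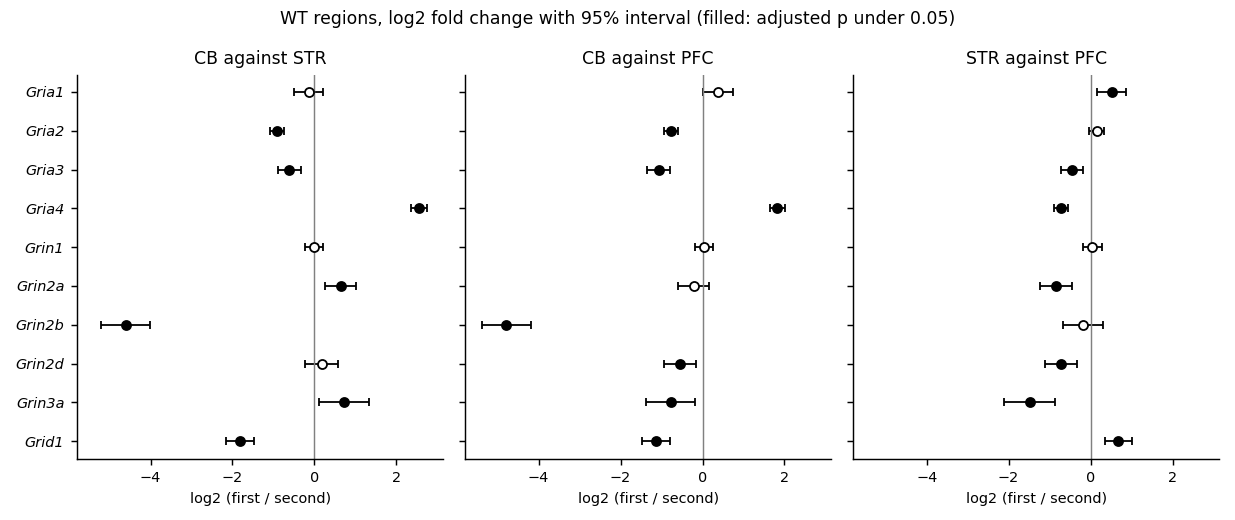
Log2 fold change of the 10 members between WT regions (CB cerebellum, STR striatum, PFC prefrontal cortex), with 95% intervals; positive values are higher in the first region, and filled points passed at an adjusted p under 0.05. *Grin2b* lies near -4.61 and -4.79 in the cerebellar comparisons and near 0 between striatum and prefrontal cortex, and *Grin1* lies near 0 in all 3.

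In order of level per length, 5 members reached 10 CPM per kb in every WT region: *Gria1*, *Gria2*, *Gria3*, *Gria4* and *Grin1*. *Gria1* stood above 94.4% to 96.5% of tested genes in each region, while *Grin2b* stood above 12.4% of them in the cerebellum against 60.4% in striatum and 63.0% in prefrontal cortex. Neighbours in this order whose libraries overlapped were, in the cerebellum, *Gria1* with *Gria4*, *Grin3a* with *Grin2a*, and *Grid1* with *Grin2d*. In the striatum they were *Grin2b* with *Grid1*, *Grin2a* with *Grin3a*, and *Grin3a* with *Grin2d*. In the prefrontal cortex they were *Gria2* with *Gria1*, *Gria3* with *Grin1*, *Grin1* with *Gria4*, *Grin3a* with *Grid1*, and *Grin2a* with *Grin2d*. The neighbours depend on the length as well. By the longest transcript the overlapping ones were *Gria2* with *Grin1* and *Grin2d* with *Grid1* in the cerebellum, and *Grin2b* with *Grid1* and *Grin2a* with *Grin2d* in the striatum. In the prefrontal cortex they were *Gria1* with *Grin1*, *Grin1* with *Gria3*, *Grin2b* with *Grin3a*, and *Grin2a* with *Grin2d*. Annotated small RNA genes lie within exons of *Gria2*, *Gria3* and *Gria4*, and antisense genes overlap exons of *Grin2b*, so that reads there may have been assigned to either gene.

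The comparison that the study was built for set knock-in against WT tissue in each region. By the quasi-likelihood test of edgeR, 0 of 10 members passed in the cerebellum, beside 0.831% of all tested genes. It was also 0 of 10 in the striatum (0.582% of all genes) and 0 of 10 in the prefrontal cortex (0.107%), and DESeq2 called 0 of 10 in each region. At an unadjusted p under 0.05 there were 2, 1 and 0 members in the same order of regions, beside 10.1%, 8.12% and 5.93% of all genes. The median log2 fold change of the members was -0.06, -0.10 and -0.03, beside 0.01, -0.01 and 0.00 over all genes. The 95% interval of the fold change stayed within 2-fold for all 10 members in each region, and within 1.5-fold for 7, 8 and 7 of them. A p that misses the threshold does not show equal levels, and smaller differences were not resolved by these libraries.

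**Figure D4:**
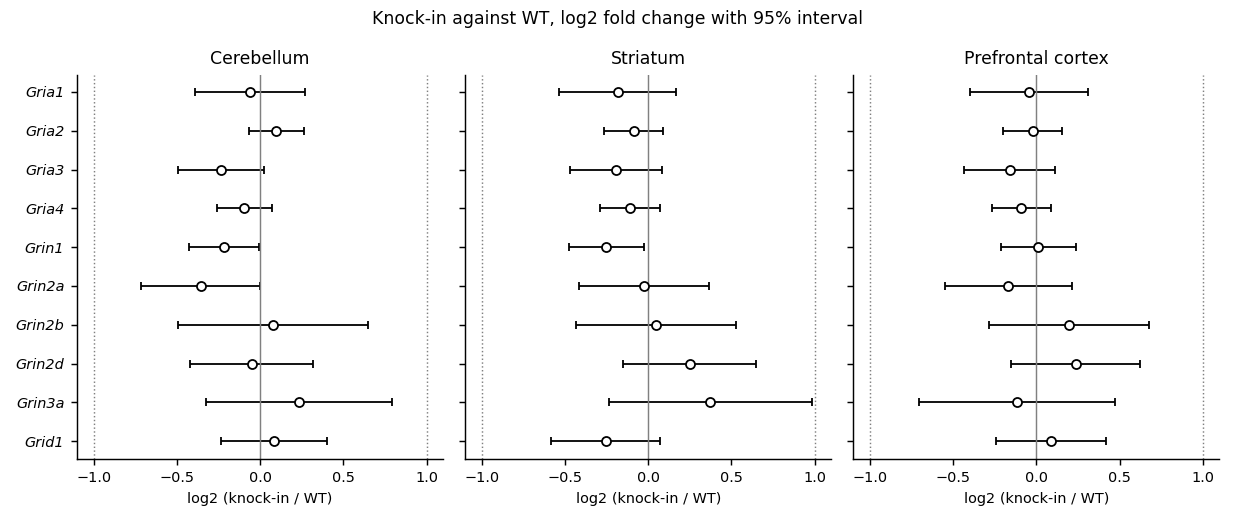
Log2 fold change of the 10 members in knock-in against WT tissue of each region with 95% intervals; the dotted lines mark a 2-fold difference in either direction, and open points did not pass at an adjusted p under 0.05. All 30 points are open, and no interval reaches a dotted line.

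*Grin1* had the smallest unadjusted p of the members in the striatum. Its knock-in striatum libraries were at 19.4, 21.9 and 15.0 CPM per kb, all under the 22.1, 22.1 and 22.7 of WT. The highest knock-in library was close to the WT group and the lowest was well apart, and the log2 fold change of -0.25 (SE 0.11, unadjusted p = 0.0322, adjusted p = 0.528 by edgeR) became -0.11 without knock-in striatum library 3. In the cerebellum the knock-in values of *Grin1* were 17.1, 19.8, 18.4 and 20.8 against 20.5, 23.0 and 22.9. These groups overlapped, and the log2 fold change was -0.22 (SE 0.10, unadjusted p = 0.0437, adjusted p = 0.474 by edgeR). In the prefrontal cortex it was 0.01 (SE 0.11), with knock-in values of 22.1, 21.5 and 21.8.

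*Grin2a* had the other unadjusted p at the limit, in the cerebellum (unadjusted p = 0.05, adjusted p = 0.493 by edgeR). Its knock-in libraries were at 1.095, 1.68, 1.96 and 2.174 CPM per kb against 2.33, 2.03 and 2.27 in WT. One library, knock-in cerebellum library 1, lay far below the rest, and without it the log2 fold change went from -0.36 (SE 0.17) to -0.19. *Gria3* was under WT in each region, with log2 fold changes of -0.24 (SE 0.12), -0.19 (SE 0.13) and -0.16 (SE 0.13) in cerebellum, striatum and prefrontal cortex. Its prefrontal knock-in libraries, at 21.2, 21.1 and 21.4 CPM per kb, all lay under the 23.7, 24.8 and 22.6 of WT. *Grid1* in the striatum was the remaining member without overlap, at 5.38, 5.10 and 4.26 against 6.08, 5.58 and 5.94 (log2 -0.26, SE 0.15, adjusted p = 0.727 by edgeR). In all, 0, 2 and 1 of the 10 members had groups that did not overlap in cerebellum, striatum and prefrontal cortex, beside 12.3%, 14.1% and 8.69% of all genes.

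The remaining members had no unadjusted p under 0.05 by edgeR in any region, but some knock-in libraries lay outside the WT range. In the cerebellum *Gria1* was at 61.6 to 83.7 CPM per kb in knock-in and 71.2 to 75.2 in WT. *Gria4* was at 62.2 to 72.0 in knock-in and 71.2 to 72.7 in WT cerebellum. *Gria1* had log2 fold changes of -0.06, -0.18 and -0.05 and *Gria4* of -0.09, -0.11 and -0.09 in cerebellum, striatum and prefrontal cortex. *Gria2*, with intervals among the narrowest, had 0.10 (95% interval -0.07 to 0.26), -0.09 (-0.27 to 0.09) and -0.02 (-0.20 to 0.16). *Grin2b* had 0.08, 0.05 and 0.20, *Grin2d* had -0.05, 0.25 and 0.24, and *Grin3a* had 0.23, 0.37 and -0.12. *Grin3a* was the most variable member: knock-in library 1 of the striatum was at 2.73 CPM per kb against 1.27 and 1.40 in the others, and knock-in library 1 of the prefrontal cortex was at 5.17 against 2.73 and 2.89.

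Averaged over the 3 regions, 0 of 10 members passed beside 1.35% of all genes, with 0 by DESeq2. At an unadjusted p under 0.05 there were 2, *Gria3* (log2 -0.20, SE 0.07, adjusted p = 0.264 by edgeR) and *Grin1* (log2 -0.15, SE 0.06, adjusted p = 0.3 by edgeR), where 12.3% of all genes lay under it. *Gria3* passed when knock-in cerebellum library 1 was left out (log2 -0.25, adjusted p = 0.0411) and under no other alternative. No member passed the test for a difference in knock-in effect between regions. It was 0 of 10 for cerebellum against striatum (beside 0.0119% of all genes), cerebellum against prefrontal cortex (0.0178%) and striatum against prefrontal cortex (0%). DESeq2 gave 0 calls as well. At an unadjusted p under 0.05 there were 0 members in each of the 3, where 6.69%, 6.12% and 4.41% of all genes lay under it.

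Shares and ratios were set side by side in the same way. *Gria2* made up 19.5%, 19.98%, 24.1% and 21.9% of AMPA transcripts in knock-in cerebellum, against 17.8% to 20.6% in WT (difference 2.20 percentage points, two-sided exact permutation p = 0.229, smallest possible 0.0571). It made up 39.9%, 40.2% and 41.1% in knock-in striatum (difference 1.44, exact p = 0.3) and 37.1%, 42.7% and 39.4% in knock-in prefrontal cortex (difference 0.933, exact p = 0.6). All 3 pairs of groups overlapped. The log2 ratio of *Grin2a* to *Grin2b* differed by -0.42, -0.08 and -0.38 in the same order (exact p = 0.286, 0.8 and 0.3), again with overlap. After adjustment over the 12 comparisons none of these p values was under 0.4.

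Marker lists of cell types were compared between the genotypes in the same libraries. In the cerebellum 4 of 6 microglial markers were higher by the test, with a median log2 fold change of 0.77, and 1 of 7 Purkinje cell markers was lower, with a median of -0.44. The summed level of 7 Purkinje cell markers was 3961 to 5521 CPM in knock-in and 6204 to 6705 CPM in WT cerebellum, and that of 6 microglial markers was 106 to 151 CPM against 75.7 to 78.3 CPM. The 6 granule cell markers summed to 3065 to 3256 CPM in knock-in and 3289 to 3808 CPM in WT cerebellum, but 3 of them had a positive and 3 a negative log2 fold change, with a median of -0.05 and 0 past the test. The 8 medium spiny neuron markers summed to 5099 to 7389 CPM in knock-in and 9448 to 10832 CPM in WT striatum, with 7 of 8 log2 fold changes negative, a median of -0.67 and 0 past the test. For 5 interneuron markers the sums were 242 to 255 against 301 to 375 CPM in the striatum. In the prefrontal cortex they were 334 to 399.9 against 443 to 547 CPM. The medians were -0.39 and -0.43, with 4 of 5 log2 fold changes negative and 0 past the test in either region. Both of these last lists went the other way in another region. In the cerebellum 5 of 5 interneuron markers were positive (median 1.43, 0 past the test). In the prefrontal cortex 8 of 8 medium spiny neuron markers were positive (median 0.64, 0 past the test). Of the markers of each list, 0 were under 0.5 CPM in these tissues, except for the interneuron list in the cerebellum, with 3 in WT and 2 in knock-in. The part of these markers in the values of *Gria3*, *Grin1*, *Grin2a* and *Grid1* was not tested.

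The kainate receptor genes *Grik4* and *Grik5* were set beside the members for comparison, and they do not stand for all kainate genes. *Grik4*, a high-affinity kainate subunit, did not pass in knock-in cerebellum (log2 -0.53, SE 0.18, unadjusted p = 0.00899, adjusted p = 0.252 by edgeR), although its groups did not overlap there. *Grik5*, which encodes another high-affinity subunit, was near WT there (log2 0.02, SE 0.13). Of 8 further ionotropic receptor genes, *Grik4*, *Grik5* and *Grin2c* among them, 0 passed for knock-in in any region by edgeR. At an unadjusted p under 0.05 there were 2, 1 and 2 in cerebellum, striatum and prefrontal cortex. The shares over all genes were 10.1%, 8.12% and 5.93%. Groups did not overlap for 3, 1 and 2 of the 8, beside 12.3%, 14.1% and 8.69% of all genes. Between WT regions *Grik5* was 4.40-fold lower in the cerebellum than in the striatum (log2 -2.14, SE 0.14, adjusted p = 1.16e-09) and 3.72-fold lower than in the prefrontal cortex (log2 -1.90, SE 0.14, adjusted p = 6.22e-09). *Grik4* was instead higher in the cerebellum than in the striatum (log2 0.92, SE 0.20, adjusted p = 0.000772). Of the same 8 genes, 5 were higher and 2 lower by the test in the cerebellum than in the striatum. The shares over all genes were 27.8% and 28.7%. Against the prefrontal cortex the counts were again 5 and 2, beside 25.1% and 26.9% of all genes.

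Partners of the receptors were counted in the same way. Of 17 auxiliary subunits of AMPA and kainate receptors, 16 were tested, and 1 was lower in knock-in striatum while 0 passed in the other regions. At an unadjusted p under 0.05 there were 2, 3 and 4 of the 16 in cerebellum, striatum and prefrontal cortex, and all such counts of partners are to be read beside the 10.1%, 8.12% and 5.93% of all genes given above. That gene was *Neto2*, an auxiliary subunit of kainate receptors, at 86.0, 109 and 86.8 CPM in knock-in and 162, 154 and 166 CPM in WT striatum (log2 -0.77, SE 0.15, adjusted p = 0.0209 by edgeR). The groups did not overlap. The *Neto2* call was lost without knock-in striatum library 1 or 3 or without any one WT striatum library (adjusted p 0.0733 to 0.149), while its effect averaged over the regions (log2 -0.49, SE 0.08, adjusted p = 0.00398) passed with each library left out. The summed medium spiny neuron markers given above were lower in the same knock-in libraries, and their part in this call was not tested. Of 23 postsynaptic scaffold and trafficking genes 0 passed by edgeR, with 4, 7 and 3 at an unadjusted p under 0.05 in cerebellum, striatum and prefrontal cortex. DESeq2 called 1 of them in the cerebellum (*Shank2*) and 2 in the striatum (*Camk2b* and *Dlgap3*), genes named after their values were seen, so that this count depended on the tool. Over all 16841 tested genes DESeq2 called 336 in the cerebellum and 214 in the striatum. Of 9 genes of glutamate release and uptake 0 passed by either tool, with 0, 1 and 1 at an unadjusted p under 0.05, and of 3 RNA editing enzymes 0 passed by either tool, with 0, 0 and 2. Of 10 trans-synaptic organisers 0 passed in a region by edgeR, with 1 at an unadjusted p under 0.05 in each, and DESeq2 called 1 in the cerebellum (*Cbln2*). Among them *Nrxn3*, a presynaptic neurexin, was lower on average over the regions (log2 -0.24, SE 0.06, adjusted p = 0.0394), a call lost without any one of 14 libraries (adjusted p at most 0.0944), under the sex covariate (log2 -0.26, adjusted p = 0.0539) and with striatum and prefrontal cortex paired by a block in limma-voom (adjusted p = 0.0698).

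Over all 19 libraries the pattern of some members was closely shared by other genes, which is given as a description because the libraries share region and genotype. The Pearson correlation of log2 CPM with *Gria4* was 0.993 for *Lin7a* and 0.992 for *Cbln1*, the cerebellin of granule cells. With *Grin2b* it was 0.993 for both *Dlgap2* and *Mmd*, with *Gria2* 0.986 for both *Myom3* and *Plppr5*, and with *Grid1* 0.987 for *Abhd17c* and 0.978 for *Fam171a1*. The closest gene to *Grin1*, which differed little between regions, reached 0.758 (*Tbx2*). Among the members themselves, *Gria2* and *Grin2b* had 0.95 and *Gria2* and *Gria4* had -0.96.

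The protein altered in these mice binds promoters, and RefSeq promoters (GRCm38.p6, 250 bases before to 50 after the start) were at hand for 4 of the 10 members, *Gria2*, *Gria4*, *Grin1* and *Grin2d*. The letters TATAAA on either strand occurred in 0 of the 4 and in 13.6% of 32851 promoters. The letters GGGCGG on either strand occurred in 1 of the 4, *Grin1*, and in 35.7% of all. The *Grin1* promoter is shown because this gene had the smallest unadjusted p in the striatum, and the capitals mark the GGGCGG match on the minus strand of chr2:25319138-25319437. The match lies within the 50 bases after the start, not before it, and its part in the *Grin1* values was not tested.
Grin1: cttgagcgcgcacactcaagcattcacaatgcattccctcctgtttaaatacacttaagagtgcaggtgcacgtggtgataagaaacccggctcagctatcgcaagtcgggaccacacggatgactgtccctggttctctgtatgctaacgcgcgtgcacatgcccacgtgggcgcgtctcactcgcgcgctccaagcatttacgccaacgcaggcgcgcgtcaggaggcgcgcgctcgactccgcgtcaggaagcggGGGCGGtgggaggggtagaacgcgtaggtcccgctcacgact
A match of letters is not a binding site, and no match says only that these letters were not in this window.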

How the data were processed

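The authors deposited raw counts of reads per Ensembl gene for all 19 libraries and a second table of these counts after division by a size factor of each library, a normalized signal used here only as an alternative for shares and ratios. Libraries were made with SMART-Seq v4 and Nextera XT kits. The submitters' processing notes name bcl2fastq 2.17.1.14, STAR 2.5.2b, HTSeq, DESeq2 1.10.1 and GRCm38.p3, while the methods of the study name Cufflinks and Cuffdiff, which need the reads and were not run. The use of strand is not given in the sources used here. Genes were named by GENCODE M21, which holds 40254 of 41128 identifiers.

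Counts were analysed with edgeR 4.0.16 in R 4.3.3. After filterByExpr and TMM scaling, one quasi-likelihood fit over the 6 groups and 19 libraries (13 residual degrees of freedom) gave all contrasts, with Benjamini-Hochberg adjustment over 16841 genes and a threshold of 0.05. Shares and ratios were compared by two-sided exact permutation tests. The alternatives were DESeq2 1.42.0, its size factors, filters on low counts, fits of the compared regions only, a block for replicate number, limma-voom (limma 3.58.1) with and without a block (added after the data were seen), a sex covariate, the longest transcript as length and each library left out. The steps were tested on simulated data. The members and lists were chosen with earlier results of these data known. Named genes were the members, further ionotropic receptor genes, list genes past the threshold in knock-in tissue and the 2 genes most like a member.

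Total counts of 10639110 to 17431284 per library set the counting precision, and no molecular identifiers were used. No 2 replicates of a group agreed within sampling noise. The methods of the study give 3 to 4 mice per genotype and each group held both sexes, so the spread within a group includes that between animals. It also includes what tissue each block held, such as the choroid plexus and olfactory bulb genes given above. The labels give replicate numbers, and deviations from the group means went together by number between striatum and prefrontal cortex. All 6 same-numbered pairs correlated above 0.1 (0.233 to 0.368), and the libraries of each such pair had the same sex. All 12 different-numbered pairs were negative. This follows in part from the positive pairs, because deviations from a group mean cancel out within the group. With the cerebellum, 0 of 6 same-numbered pairs correlated above 0.1 for prefrontal cortex and 2 of 6 for striatum. Some results on further receptor genes and markers are not reported here.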

Additional observations from a re-analysis of the deposited data

Results flagged for a closer look

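*Grid1* in the 4 knock-in cerebellum libraries held a library far from the others: knock-in cerebellum library 1 was at 12.9 CPM and the other 3 were at 9.55 to 10.1 CPM, so that the gap took 0.842 of the whole range, above Dixon's 95% limit for 4 values. This was 1 of 12 values examined in that group (the 10 members, the *Gria2* share and the *Grin2a* to *Grin2b* ratio), and chance flags about 1 group in 20. The same library was also the lowest of its group for *Grin2a* and *Grin1* and the highest for *Gria1*, *Gria3* and *Grin3a*. Without it the *Grid1* knock-in effect in the cerebellum was -0.03 on the log2 scale, against 0.08 with it, and neither passed the test.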

How the results depend on the processing

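Counts of members past the threshold stayed within 1.5 times of those reported under DESeq2, its size factors in edgeR, both filters on low counts, fits of the compared regions only, the sex covariate and the replicate block, and the knock-in counts in each region were 0 in all of them. With one library left out, the counts were 6 to 7 for cerebellum against striatum, 5 to 7 for cerebellum against prefrontal cortex, 5 to 7 for striatum against prefrontal cortex and 0 to 1 for the averaged knock-in effect, where the 1 was *Gria3* without knock-in cerebellum library 1. *Gria1* between striatum and prefrontal cortex lost its call in the fit of these regions only (log2 0.52, adjusted p = 0.0511), and *Grin3a* between cerebellum and striatum under the stricter filter (log2 0.68, adjusted p = 0.0523) and the sex covariate (log2 0.70, adjusted p = 0.0533).

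Small effects changed sign when one library was left out; the cause was not tested. For knock-in against WT the log2 ranges were, in the cerebellum, -0.17 to 0.24 for *Grin2b*, -0.11 to 0.0090 for *Grin2d* and -0.029 to 0.16 for *Grid1*. In the striatum they were -0.083 to 0.052 for *Grin2a*, -0.12 to 0.21 for *Grin2b* and -0.059 to 0.61 for *Grin3a*. In the prefrontal cortex they were -0.24 to 0.12 for *Gria1*, -0.081 to 0.041 for *Gria2*, -0.035 to 0.071 for *Grin1*, -0.48 to 0.038 for *Grin3a* and -0.060 to 0.24 for *Grid1*. Between WT regions they were, for *Grin1*, -0.039 to 0.043 (cerebellum against striatum), -0.017 to 0.089 (cerebellum against prefrontal cortex) and -0.0050 to 0.10 (striatum against prefrontal cortex), for *Grin2d* -0.0045 to 0.27 between cerebellum and striatum, and for *Grin2b* -0.34 to 0.0031 between striatum and prefrontal cortex. The sex covariate turned *Grin2b* in knock-in striatum to -0.065 and *Grin1* in knock-in prefrontal cortex to -0.029. The *Gria2* share differed by -0.559 to 2.42 percentage points between knock-in and WT prefrontal cortex and by -0.879 to 1.63 between WT striatum and prefrontal cortex, and the log2 ratio of *Grin2a* to *Grin2b* by -0.26 to 0.16 between knock-in and WT striatum.

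The replicate numbers paired striatum with prefrontal cortex but not with cerebellum. In limma-voom fits chosen after seeing the data, with this pairing as a random replicate block, 0 members passed for knock-in in any region, on average or between regions, and 7, 8 and 7 between the WT regions, against 7, 7 and 7 without the block; a paired edgeR fit of striatum against prefrontal cortex gave 7 and, for the difference in knock-in effect, 0. This block changed the calls of *Gria1* for cerebellum against prefrontal cortex (log2 0.40, adjusted p = 0.0473) and of *Nrxn3* on average (log2 -0.24, adjusted p = 0.0698), and no other call of a member, of *Neto2* or of *Nrxn3*. With the number as a block in all regions, 0 members passed for knock-in in any region, on average or between regions, and 7, 8 and 7 passed between the WT regions, the added call being *Gria1* for cerebellum against prefrontal cortex (log2 0.40, adjusted p = 0.0186). *Neto2* in the striatum (adjusted p = 0.0598) and *Nrxn3* on average (adjusted p = 0.121) missed the threshold under that block.

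Over all genes, DESeq2 called 336, 214 and 52 for knock-in cerebellum, striatum and prefrontal cortex, against 140, 98 and 18 by edgeR, and fits of 1 region called 172, 46 and 0, the block in all regions 142, 72 and 9, limma-voom 177, 151 and 8, and limma-voom with pairing 185, 151 and 8. For the averaged effect DESeq2 called 440 against 228, and for differences between regions 50, 32 and 12 against 2, 3 and 0, limma-voom 1, 1 and 0 and limma-voom with pairing 1, 0 and 1. *Grin2b* in the cerebellum rested on 91 to 103 counts per WT library, and with 3 or 4 libraries a group the knock-in intervals of *Grin3a* and *Grin2b* were the widest, and a 1.5-fold effect lay inside the 95% interval of *Grin3a* in each region, of *Grin2a* and *Grin2b* in the cerebellum, of *Grin2d* in the striatum, and of *Grin2b* and *Grin2d* in the prefrontal cortex.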
